A study of Mus musculus with 9 samples.

Results

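Vinculin (Vcl) and integrin-linked kinase (Ilk) are proteins of focal adhesions, the plaques at which a cell grips the extracellular matrix. Each gene has a partner on the other strand of the DNA whose exons cover some of the same bases, Ap3m1 for Vcl and Taf10 for Ilk. These 4 features, of 55228 in each count file, were examined on both strands in mouse uterus. They were chosen by their position and by their counts in these same libraries, so that their differences between groups are given as a description without a test.

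At a focal adhesion, integrins span the membrane and bind matrix outside the cell and a chain of adaptor proteins inside it. Talin binds the integrin tail and, when stretched, exposes sites for vinculin, which ties the plaque to actin filaments and strengthens it under load. Integrin-linked kinase acts mainly as a scaffold, joining integrin tails to actin together with the PINCH and parvin proteins. In the uterus such contacts anchor the smooth muscle of the myometrium, and stromal and epithelial cells form them on matrix and basement membrane. The partners belong to other machinery. Ap3m1 encodes the mu subunit of the AP-3 adaptor, which sorts cargo from endosomes towards lysosomes and related organelles, and Taf10 encodes a subunit shared by the transcription complexes TFIID and SAGA.

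Uterine horns were taken on day 7 after surgery from wild-type C57BL females aged 8 weeks, with 3 mice a group and 1 library a mouse. The sham group was operated on without further treatment being stated. In the injury group 10 passes of a 27 gauge needle were made against the lining of the uterus, and 50 μL of PBS was given. The CRC group had the same injury and received 1000000 CRCs in 50 μL. CRCs are conditionally reprogrammed cells, here endometrial epithelial cells expanded in culture on irradiated feeder cells, and those given were wild type. The horn is a mixture of muscle, stroma, epithelium and vessels, so that fewer cells of a type and less RNA per cell cannot be told apart in any value below.

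The sham libraries held 325384, 317754 and 327883 counts on features, the injury libraries 290684, 280886 and 282937 and the CRC libraries 288619, 289964 and 290833. Between 0.776% and 0.898% of the records in a library were on features. Sham replicate 1 stood apart, since its chi-square over degrees of freedom was 9.99 and 11.9 against the other sham libraries, and all other pairs within a group had 2.20 to 4.12. CPM, counts rescaled by TMM so that libraries can be compared, made the unit of levels, and 1 count was worth 3.05 to 3.70 CPM. Neither the strand setting of the counting nor whether the library kit marks strand is given in the sources used here. Without strand, reads from the bases that a pair shares cannot be told apart by gene. With a kit that marks strand and the opposite setting, the reads counted on a feature would come from the gene on the other strand, those on Ap3m1 from Vcl and those on Taf10 from Ilk. Values in the tables that bear on this are the low share of records on features, 159 counts on the muscle gene Tagln beside 130075 on Gm48529 opposite it, and 0 on Rhoa beside 3101 on Gm37401 opposite it. The setting was not tested, and in all that follows a gene name stands for the feature to which the authors assigned the count. No value can be read with certainty as RNA of that gene.

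In the GENCODE M21 annotation of GRCm38, Vcl (ENSMUSG00000021823.10) lies on the plus strand of chromosome 14, from 20929398 to 21033676, with 3 transcripts. Ap3m1 (ENSMUSG00000021824.13) lies on the minus strand from 21031442 to 21052508, with 8 transcripts. The genes converge tail to tail. They share 2090 exon bases, from 21031587 to 21033676, which are the whole of the last exon of the transcript Vcl-201 and lie in the untranslated region of a single Ap3m1 transcript, Ap3m1-206. The shared bases are 25.5% of the 8191 exon bases of Vcl and 29.8% of the 7015 exon bases of Ap3m1.

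Ilk (ENSMUSG00000030890.16) lies on the plus strand of chromosome 7, from 105736592 to 105742925, with 12 transcripts. Taf10 (ENSMUSG00000043866.11) lies on the minus strand from 105739393 to 105744361, with 4 transcripts. They share 2106 exon bases in 6 segments, which are 76.7% of the 2744 exon bases of Ilk and 45.9% of the 4584 of Taf10. The transcript Taf10-203, whose long last exon runs back across Ilk, carries all 2106 of them, while Taf10-202 and Taf10-204 carry 30 and 20. At its other end Ilk shares 355 exon bases in 3 segments with Rrp8, a minus-strand gene for a nucleolar methyltransferase. Exon overlap with the other strand was found for 16.6% of the 53456 features that matched a gene by name.

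**Figure D1:**
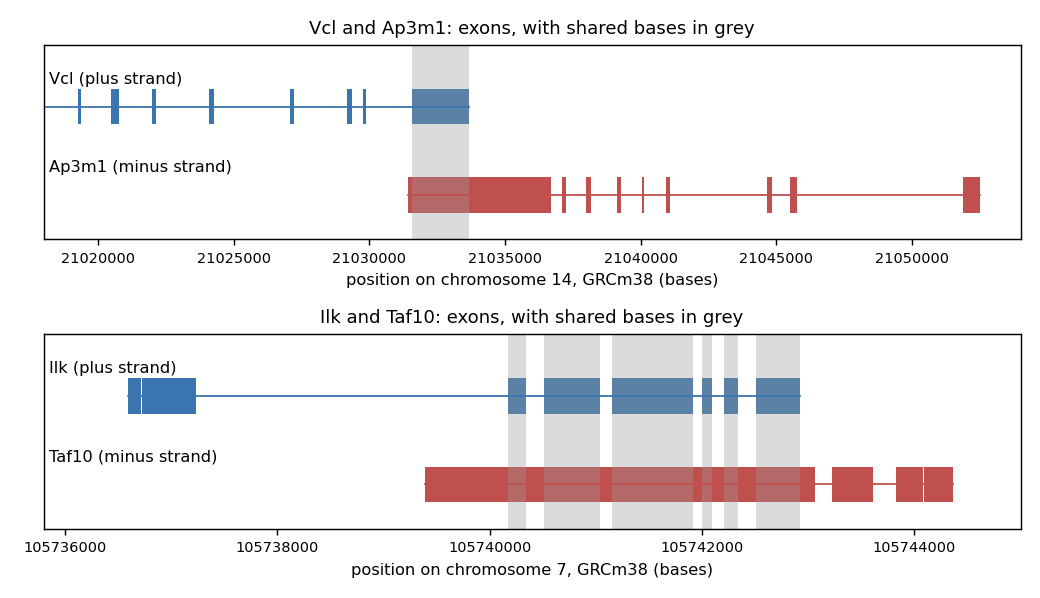
Exons (boxes) of Vcl and Ap3m1 on chromosome 14, of which the 3′ end of Vcl is drawn, and of Ilk and Taf10 on chromosome 7, by position in bases on GRCm38. Grey bands mark the 2090 and 2106 exon bases that the genes of each pair share, 1 band for Vcl and 6 for Ilk.

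Counts within each pair were very unequal. Over the 9 libraries Vcl held 318 counts and Ap3m1 held 40833, and Ilk held 151 and Taf10 held 42361. Taf10 and Ap3m1 ranked 6 and 7 by total count among the 55228 features, while Vcl ranked 1335 and Ilk 2348. Per kilobase of exon, the mean level in sham was 15.2 CPM for Vcl and 2720 CPM for Ap3m1. It was 26.0 CPM per kilobase for Ilk and 4469 CPM per kilobase for Taf10. The order of these features per kilobase was Taf10, Ap3m1, Ilk and Vcl, which is the order of the counts as assigned and, with the strand setting unknown, not an order of the RNA of the 4 genes.

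Vcl had 29, 36 and 41 counts in the sham libraries, 27, 39 and 38 in the injury libraries and 45, 35 and 28 in the CRC libraries. The 3 groups overlapped, and their sums of 106, 104 and 108 counts were nearly equal. In CPM, Vcl was at 124.6 ± 27.3 in sham, 121.4 ± 24.1 in injury and 110.0 ± 25.9 in CRC (mean ± SD, n = 3 mice each). Differences between the groups were smaller than the spread within each of them. The log2 fold change of Vcl was -0.18 ± 0.31 (SE) from sham to CRC, -0.14 ± 0.31 from injury to CRC and -0.03 ± 0.31 from sham to injury. At 27 to 45 counts a library the precision was low, since 36 counts have a 95% Poisson interval of 25.2 to 49.8. These intervals cover the counting error alone, as copies of a molecule made by PCR were not told apart.

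Ap3m1, on the other strand from Vcl, had 6776, 4590 and 5110 counts in sham mice, 4692, 4996 and 4780 after injury alone and 3048, 3658 and 3183 after transplantation. Each CRC library lay below each sham and each injury library, whereas sham and injury overlapped. Sham replicate 1 was the highest of the 9. In CPM, Ap3m1 was at 19080 ± 2590 in sham, 16870 ± 649 in injury and 10080 ± 1030 in CRC (mean ± SD, n = 3 each). The log2 fold change was -0.92 ± 0.12 (SE) from sham to CRC, which is 0.528 times the sham level. It was -0.74 ± 0.12 from injury to CRC and -0.18 ± 0.12 from sham to injury.

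Ilk had 28, 16 and 18 counts in sham mice, 23, 14 and 17 after injury alone and 13, 7 and 15 after transplantation. In CPM the CRC libraries, at 39.6, 21.5 and 45.8, lay below the sham libraries, at 90.8, 59.2 and 64.4, and below the injury libraries, at 79.8, 49.2 and 59.6. Sham and injury overlapped. The gap was narrow, between 45.8 CPM in the highest CRC library and 49.2 CPM in the lowest injury library, which is close to the worth of 1 count. In counts CRC and injury overlapped, with 15 in CRC replicate 3 and 14 in injury replicate 2. Group means were 71.5 ± 16.9 CPM in sham, 62.9 ± 15.6 in injury and 35.6 ± 12.6 in CRC (SD, n = 3 each). The log2 fold change of Ilk was -1.0 ± 0.44 (SE) from sham to CRC, -0.81 ± 0.44 from injury to CRC and -0.19 ± 0.42 from sham to injury. Summed over a group, Ilk held 62 counts in sham (95% Poisson interval 47.5 to 79.5) and 35 in CRC (24.4 to 48.7).

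Taf10, on the other strand from Ilk, had 7173, 4833 and 5679 counts in sham mice, 4853, 4800 and 4842 after injury alone and 3128, 3745 and 3308 after transplantation. The CRC libraries were the lowest, as for Ap3m1, and the injury libraries were close together. In CPM the means were 20490 ± 2693 in sham, 16900 ± 78.2 in injury and 10370 ± 1021 in CRC (SD, n = 3 each). Here the lowest sham library, at 17890 CPM, also lay above the highest injury library, at 16990 CPM. In counts sham and injury overlapped, with 4833 in sham replicate 2 and 4853 in injury replicate 1. The separation of sham from injury thus rests on the scaling. The log2 fold change of Taf10 was -0.98 ± 0.12 (SE) from sham to CRC, -0.70 ± 0.12 from injury to CRC and -0.28 ± 0.12 from sham to injury.

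**Figure D2:**
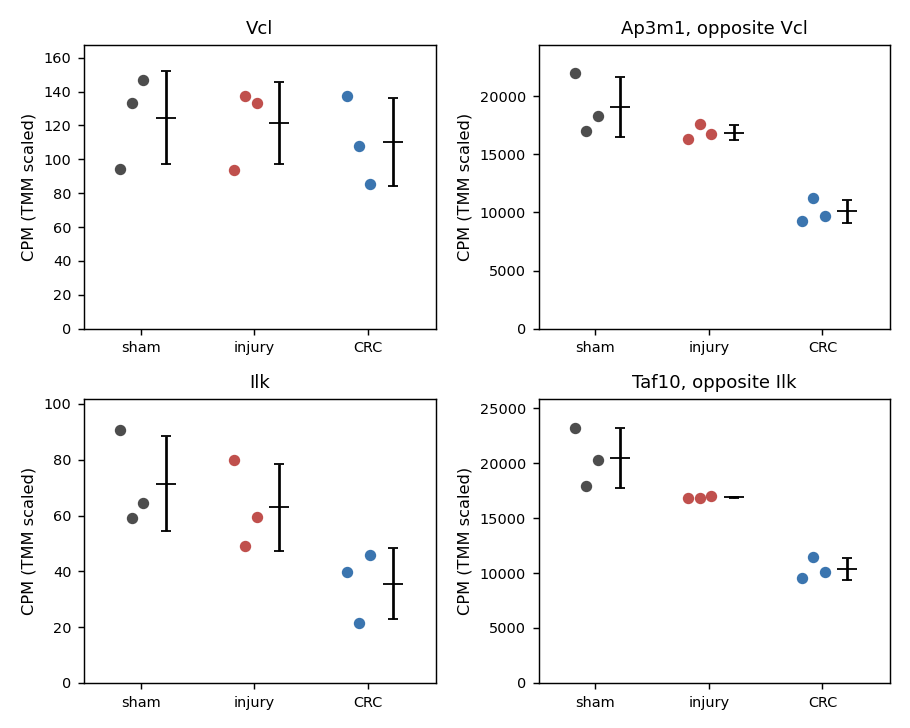
CPM after TMM scaling (vertical axis, from 0) of Vcl, Ap3m1, Ilk and Taf10 in the sham, injury and CRC libraries. Points are the libraries, replicates 1 to 3 from left to right in each group, and bars are the mean ± SD (n = 3). The CRC points of Ap3m1, Ilk and Taf10 lie below those of the other groups, and the points of Vcl overlap.

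The 3 comparisons share their groups and are given side by side. Features were called at an adjusted p under 0.05 in the quasi-likelihood test of edgeR, with p-values adjusted by Benjamini and Hochberg's method over 3722 features. Between CRC and sham 20.04% of all tested features were called, 12.01% lower and 8.03% higher. Between CRC and injury 12.9% were called, 7.82% lower and 5.10% higher. Between injury and sham 16 features or 0.430% were called, and 468 had an unadjusted p under 0.05. No test outcome is given for the 4 features, as they were selected on these counts. The 16 calls depended on single libraries and were 3 to 154 with a replicate left out, the 154 without sham replicate 1. Without that library the log2 fold changes from sham to CRC were -0.37 for Vcl, -0.83 for Ap3m1, -0.81 for Ilk and -0.90 for Taf10. From sham to injury they were -0.20, -0.06, 0.03 and -0.17 in the same order. In CPM under TMM the groups did not overlap, with CRC lower, for 3 of the 4 features against sham and for 3 against injury. The shares of all tested features were 17.8% and 16.98%. With injury below sham it was 1 of the 4, Taf10, against 7.82% of all. Nothing is read from how the numbers of the 4 compare with these shares.

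All features tested had a median log2 fold change of 0.03 between CRC and sham under TMM. When library sizes included the records outside features, this median rose to 0.32, and that between CRC and injury to 0.21. With these library sizes, and with the shift of the median not subtracted, the log2 fold changes were -0.63 for Ap3m1 and -0.69 for Taf10 between CRC and sham, and -0.55 and -0.51 between CRC and injury. Ilk stayed below 0 at -0.71 between CRC and sham. Vcl changed sign, to 0.12 between CRC and sham and 0.06 between CRC and injury. Under the same scaling the split of called features changed from 299 higher and 447 lower to 643 higher and 281 lower between CRC and sham, or from 40.1% to 69.6% higher. Between CRC and injury it changed from 39.5% to 63.9% higher, and between injury and sham from 62.5% to 82.4%.

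The ratio of the counts of a pair within a library does not depend on the scaling. Ap3m1 had 234, 128 and 125 counts for each count of Vcl in the sham libraries, 174, 128 and 126 in injury and 67.7, 104.5 and 114 in CRC. The CRC ratios lay below those of both other groups. The group means were 162 ± 62.2 in sham, 143 ± 27.1 in injury and 95.3 ± 24.3 in CRC (SD, n = 3 each). The sham mean rests on replicate 1, and was 126 without it. The gap between 114 in CRC and 125 in sham was small beside the counting error of Vcl, whose 28 counts in CRC replicate 3 have a 95% Poisson interval of 18.6 to 40.5.

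Taf10 had 256, 302 and 316 counts for each count of Ilk in sham mice, 211, 343 and 285 after injury alone and 241, 535 and 220.5 after transplantation. These ratios overlapped between all groups, with means of 291 ± 31.1, 280 ± 66.1 and 332 ± 176 (SD, n = 3 each). The high value in CRC came from replicate 2, with 7 counts on Ilk, and the CRC mean was 231 without it.

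Across the pairs, the features of the 2 partners ran in parallel. Ap3m1 had 0.945, 0.950 and 0.900 counts for each count of Taf10 in sham mice, 0.967, 1.04 and 0.987 after injury alone and 0.974, 0.977 and 0.962 after transplantation. The ratio stayed close to 1 in every library, while the counts themselves ranged from 3048 to 6776 for Ap3m1 and from 3128 to 7173 for Taf10. Of 1523 other tested features that averaged 30 counts or more, Taf10 was the most like Ap3m1 over the 9 libraries, with a Pearson r of 0.993 of log2 CPM. With the mean of each group removed, r was 0.958. The points share their libraries and scaling, and r is given without a test. For Vcl and Ap3m1, r was 0.166, and -0.392 with the group means removed. For Ilk and Taf10 it was 0.758, and -0.034 with the group means removed, so that within groups the low counts of Ilk did not follow those of Taf10.

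Next after Taf10, the features most like Ap3m1 were Gm20721, with an r of 0.991, and Rbbp4, with an r of 0.987. For Taf10 they were, after Ap3m1, Gm37401 with 0.985 and Rbbp4 with 0.984. Each of these also overlaps an exon of a gene on the other strand. How many of the 1523 features compared have such an overlap was not counted, so nothing is read from this. Gm20721 shares 1469 exon bases with Gnas, which encodes the stimulatory G protein alpha subunit. Gm37401 shares 324 with Rhoa, the small GTPase that drives stress fibre and adhesion assembly. Rbbp4, a histone-binding protein of chromatin complexes, shares 796 with the feature Gm26722 and 782 with Sync, which encodes the intermediate filament protein syncoilin of muscle.

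Gm20721 had 8122, 5513 and 5912 counts in sham mice, 5348, 6100 and 5917 after injury alone and 4125, 4858 and 4418 after transplantation. Gm37401 had 562, 420 and 499 in sham mice, 399, 320 and 361 after injury alone and 156, 205 and 179 after transplantation. Rbbp4 had 648, 401 and 569 in sham mice, 425, 476 and 450 after injury alone and 212, 286 and 205 after transplantation. All 3 had their lowest counts in the CRC libraries. This order comes with the choice, since they were picked for likeness to Ap3m1 and Taf10, which are lowest there. On their own strands Gnas held 52 counts over the 9 libraries, Sync 263 and Rhoa 0. With the strand setting unknown, these low counts set no limit on the RNA of the 3 genes.

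The other annotated neighbours of the pairs had low counts. Rrp8, which overlaps the start of Ilk, had 26, 15 and 1 counts in sham mice, 7, 12 and 7 after injury alone and 6, 3 and 3 after transplantation. Its sham libraries held both the highest and the lowest count of the 9, and its log2 fold change between CRC and sham of -1.94 ± 0.75 (SE) did not pass the test (adjusted p = 0.0645, edgeR with Benjamini-Hochberg adjustment). Adk, the adenosine kinase gene that starts beyond Ap3m1 on the plus strand, had 0 counts in every library. On the Ilk side, Dchs1 had 0 counts, Tpp1 had 7 and Dnhd1 had 11 over all libraries. The pseudogene Gm15645 had 156 and did not pass the test in any comparison.

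The first 250 bases upstream of the RefSeq gene starts on GRCm38.p6 were searched on both strands for the CArG box, the motif of serum response factor, which drives many smooth muscle and cytoskeletal genes. The window of Vcl, chr14:20929148-20929397 on the plus strand, holds 1, CCTTATAAGG, which begins 227 bases before the gene start. The windows of Ilk, Taf10 and Ap3m1 hold 0. Of 32851 promoter windows of this length, 482 or 1.47% hold such a box. A match describes these letters only, and binding was not measured.

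The other genes of focal adhesions were taken as 63 genes in 4 groups, with Vcl and Ilk left out. On their own strands 46 of the 63 had fewer than 10 counts over all 9 libraries, and 3 had enough counts to be tested. Of these, 1 rose and 1 fell between CRC and sham, 1 rose between CRC and injury, and 0 passed the threshold between injury and sham. For that last comparison 1 had an unadjusted p under 0.05, and DESeq2 also called 0. Of all tested features 8.03% were called higher and 12.01% lower between CRC and sham, and 5.10% and 7.82% between CRC and injury. Between injury and sham 0.430% of all were called. The median log2 fold changes of the 3 were -0.06, -0.17 and 0.11, beside 0.03, 0.01 and -0.01 for all features tested. A further 15 features lie opposite these genes, and 7 of them were tested. Of these 0 rose and 2 fell between CRC and sham, 1 rose and 1 fell between CRC and injury, and 0 passed between injury and sham, where 2 had an unadjusted p under 0.05 and DESeq2 called 0. Their median log2 fold changes were 0.09, 0.35 and -0.37. Nothing is read from how the calls among the 3 and the 7 compare with the shares of all features.

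Among the integrins, the matrix receptors themselves, 15 genes were listed and Itga2, the alpha chain of a collagen receptor, was tested. It had 19, 17 and 26 counts in sham mice, 24, 25 and 18 after injury alone and 24, 18 and 26 after transplantation. These groups overlapped and no comparison passed the test. The features opposite Itgav and Itga8, Gm13684 and E030013I19Rik, were tested and did not pass either. Of the 9 genes of the ILK complex and the kindlins, which activate integrins, 0 could be tested on their own strand. Of the 15 genes of adhesion signalling, with the kinases Ptk2 and Src and the adaptor Pxn among them, 0 could be tested on either strand.

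The actin linkers, 24 genes for proteins that join the plaque to actin, held the changes on own strands. Actn1, which encodes the crosslinker alpha-actinin, had 25, 33 and 32 counts in sham mice, 13, 25 and 11 after injury alone and 12, 13 and 11 after transplantation. The CRC libraries lay below the sham libraries and overlapped with injury at its lower end. Actn1 fell from 105.9 ± 21.8 CPM in sham to 36.7 ± 3.20 in CRC (SD, n = 3 each), with a log2 fold change of -1.51 ± 0.41 (SE; adjusted p = 0.00796, edgeR with Benjamini-Hochberg adjustment). The other comparisons of Actn1 did not pass, at -0.63 ± 0.43 from injury to CRC and -0.88 ± 0.39 from sham to injury.

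Gm47766 shares 363 exon bases with the first part of Actn1 on chromosome 12, on the other strand. It had 814, 350 and 489 counts in sham mice, 607, 480 and 545 after injury alone and 409, 282 and 332 after transplantation. In CPM the CRC libraries, at 1246, 867 and 1013, were lower than those of sham, at 2640, 1295 and 1749, and of injury, at 2106, 1688 and 1912. Gm47766 fell by a log2 fold change of -0.86 ± 0.19 (SE) against sham and of -0.87 ± 0.19 against injury (adjusted p = 0.0015 and 0.00221, edgeR with Benjamini-Hochberg adjustment). Sham replicate 1 lay apart from the other sham libraries, and without it the value against sham was -0.57 and still passed. Between injury and sham its log2 fold change was 0.00 ± 0.19.

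Sorbs2, an adaptor that binds vinculin and actin and is found along stress fibres, moved the other way. It had 17, 25 and 26 counts in sham mice, 20, 40 and 44 after injury alone and 135, 132 and 152 after transplantation. The CRC libraries stood far above all others, while sham and injury overlapped. Sorbs2 rose from 80.2 ± 21.7 CPM in sham to 427 ± 32.0 in CRC, with injury at 121.5 ± 45.6 (SD, n = 3 each). Its log2 fold change was 2.41 ± 0.29 (SE) against sham and 1.81 ± 0.27 against injury (adjusted p = 2.8e-07 and 1.73e-05, edgeR with Benjamini-Hochberg adjustment). The feature opposite it, Sorbs2os, shares 1051 exon bases with it and did not pass the test in any comparison. Sorbs2os had 54, 17 and 20 counts in sham mice, 40, 40 and 49 after injury alone and 62, 53 and 73 after transplantation. From sham to CRC its log2 fold change was 0.87 ± 0.32 (SE; adjusted p = 0.0534, edgeR with Benjamini-Hochberg adjustment).

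On the other strand from Actn4, the second non-muscle alpha-actinin gene, lies Capn12, a calpain gene, which shares 316 exon bases with it. It had 111, 187 and 120 counts in sham mice, 85, 77 and 81 after injury alone and 95, 60 and 73 after transplantation. Its sham libraries were above all others in CPM, and injury and CRC overlapped. Capn12 fell by a log2 fold change of -1.08 ± 0.23 (SE) from sham to CRC (adjusted p = 0.000987, edgeR with Benjamini-Hochberg adjustment).

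Lims2, a PINCH protein of the ILK complex, shares 188 exon bases with Gpr17, a receptor gene on the other strand. Gpr17 had 114, 148 and 119 counts in sham mice, 87, 99 and 101 after injury alone and 188, 159 and 174 after transplantation. It rose from 335 ± 28.7 CPM in injury to 531 ± 42.0 in CRC (SD, n = 3 each), a log2 fold change of 0.66 ± 0.19 (SE; adjusted p = 0.0179, edgeR with Benjamini-Hochberg adjustment). Sham, at 448 ± 91.1 CPM, overlapped with CRC. The call was lost without injury replicate 1, injury replicate 3, CRC replicate 1 or CRC replicate 3, with adjusted p-values from edgeR of 0.114, 0.0587, 0.0941 and 0.0773, and with no filter on low counts (adjusted p = 0.13, edgeR).

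**Figure D3:**
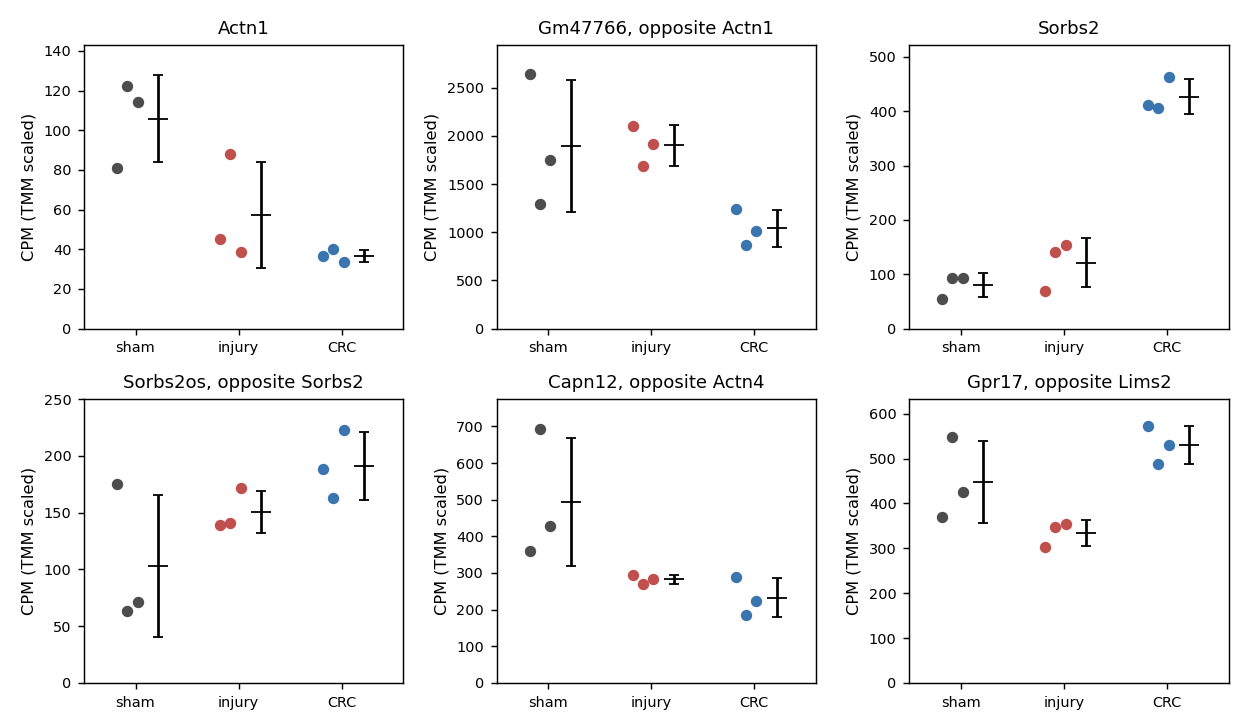
CPM after TMM scaling (vertical axis, from 0) of 6 features of the actin linker and ILK complex groups, on the strand of the gene or opposite it, in the sham, injury and CRC libraries. Points are the libraries, replicates 1 to 3 from left to right, and bars are the mean ± SD (n = 3). Sorbs2 is highest in CRC, and Actn1 and Capn12 are lower in CRC than in sham.

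The complexes of the partners were followed in the same way. Of 6 other AP-3 genes, Ap3d1, which encodes the delta subunit, was tested and had 10, 25 and 29 counts in sham mice, 17, 13 and 15 after injury alone and 27, 18 and 29 after transplantation. It overlapped between sham and CRC and did not pass the test. In the AP-3 list edgeR called 0 genes in each comparison, 0 had an unadjusted p under 0.05, and DESeq2 called 0. The feature opposite Ap3s2, Gm26646, was tested and did not pass.

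Of 26 genes of TFIID and SAGA, which place the polymerase and modify histones at promoters, 5 were tested and edgeR called 0 in each comparison. Unadjusted p-values were under 0.05 for 0 of them between CRC and sham, 2 between CRC and injury and 1 between injury and sham, and DESeq2 called 0. Of all tested features edgeR called 20.04% between CRC and sham, 12.9% between CRC and injury and 0.430% between injury and sham. Tbp, the TATA-binding protein of TFIID, had 362, 204 and 278 counts in sham mice, 293, 341 and 297 after injury alone and 248, 285 and 296 after transplantation. Its log2 fold change was -0.21 ± 0.17 (SE) from sham to CRC and -0.36 ± 0.17 from injury to CRC. Taf6, the other with an unadjusted p under 0.05 between CRC and injury, went the other way, at 0.98 ± 0.34 (adjusted p = 0.0563, edgeR), with each CRC library above each injury library. The others tested were Taf6l, Taf9b and Tada2b.

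Of 8 tested features opposite TFIID and SAGA genes, 1 fell between CRC and sham and 2 fell between CRC and injury. Among all tested features 12.01% and 7.82% were called lower, and nothing is read from how the 8 compare with these shares. Those that fell are named after their values were seen. Pogk, opposite the SAGA gene Tada1, had 80, 100 and 131 counts in sham mice, 113, 82 and 81 after injury alone and 53, 73 and 58 after transplantation. Its log2 fold change was -0.96 ± 0.24 (SE) against sham and -0.78 ± 0.24 against injury (adjusted p = 0.00426 and 0.0283, edgeR with Benjamini-Hochberg adjustment). Ap4m1, the mu subunit gene of the related AP-4 adaptor, lies opposite Taf6 and had a log2 fold change of -0.62 ± 0.18 against injury (adjusted p = 0.0213, edgeR with Benjamini-Hochberg adjustment). It shares 1185 exon bases with Taf6 and 321 with Mcm7, a gene outside this list. The calls against injury were lost without injury replicate 1 or CRC replicate 1 for both features, with adjusted p-values from edgeR of 0.169 and 0.134 for Pogk and of 0.0975 and 0.149 for Ap4m1. That of Pogk was also lost without CRC replicate 3 (adjusted p = 0.109, edgeR), and that of Ap4m1 without injury replicate 3 or CRC replicate 2 (adjusted p = 0.0946 and 0.0709, edgeR). With records outside features in the library size both calls against injury were lost as well (adjusted p = 0.112 for Pogk and 0.144 for Ap4m1, edgeR).

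Markers of the cell types of the horn were set beside these values. The 8 smooth muscle markers summed to 123, 151 and 137 counts in sham mice, 84, 95 and 90 after injury alone and 79, 76 and 102 after transplantation. The sums were highest in sham and overlapped between injury and CRC. Myh11, the smooth muscle myosin heavy chain, was the most abundant, with 459 counts over all libraries, and Actg2 had 1. Of the 3 tested, Myh11 fell from sham to CRC by a log2 fold change of -1.24 ± 0.30 (SE; adjusted p = 0.00299, edgeR with Benjamini-Hochberg adjustment), and 0 rose. Among all tested features 12.01% were called lower and 8.03% higher in that comparison. From injury to CRC Myh11 was at -0.34 ± 0.31 and did not pass. Tagln was lower in each CRC library than in each sham and injury library, at -1.13 ± 0.42 against sham (adjusted p = 0.0528, edgeR) and -0.77 ± 0.42 against injury, and did not pass. Lmod1 was at 0.13 ± 0.44 from sham to CRC. Of the 3, Tagln alone thus had CRC below both other groups without overlap, as Ap3m1 and Taf10 did.

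The features opposite these markers held more. They summed to 22033, 18205 and 18738 counts in sham mice, 15805, 15167 and 15508 after injury alone and 9683, 9138 and 9108 after transplantation, nearly all on Gm48529 opposite Tagln, the gene of transgelin. Pcsk7, also opposite Tagln, shares 108 exon bases with it and 415 with Rnf214, which is not among the markers. All 3 tested features opposite the markers, Gm48529, Gm11946 and Pcsk7, fell from sham to CRC, where 12.01% of all tested features were called lower. That call of Pcsk7 was lost without sham replicate 3, CRC replicate 2 or CRC replicate 3 (adjusted p = 0.0546, 0.11 and 0.0598, edgeR). It was also lost with records outside features in the library size and with no filter on low counts (adjusted p = 0.0622 and 0.0857, edgeR). From injury to CRC, where 7.82% of all were called lower, Gm48529 and Pcsk7 passed at -0.94 and -1.50 (adjusted p = 3.69e-08 and 0.00933, edgeR). Pcsk7 did not pass there without CRC replicate 2 (adjusted p = 0.0706, edgeR). Between injury and sham edgeR called 0 of the 3 and DESeq2 called 1. From sham to CRC Gm48529 fell by -1.28 ± 0.10 on the log2 scale (SE; adjusted p = 1.76e-10, edgeR with Benjamini-Hochberg adjustment), compared with the -0.92 and -0.98 of Ap3m1 and Taf10. Ap3m1 had 0.314, 0.258 and 0.280 counts for each count of Gm48529 in sham mice, 0.304, 0.335 and 0.317 after injury alone and 0.325, 0.412 and 0.361 after transplantation. This ratio was higher in each CRC library than in each sham library, so that Ap3m1 was lower by less than Gm48529. The r of Gm48529 with Ap3m1 was 0.960, and 0.313 with the group means removed. Gm48529 and Pcsk7 were lowest in the CRC libraries, as Ap3m1 and Taf10 were, while Gm11946 overlapped between injury and CRC. The part of smooth muscle in the lower values was not tested.

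Of the leukocyte markers, Csf1r, the receptor of macrophage colony-stimulating factor, held 496 of 498 counts. The list summed to 66, 63 and 79 counts in sham mice, 63, 49 and 62 after injury alone and 45, 36 and 35 after transplantation. Csf1r fell from sham to CRC by a log2 fold change of -1.04 ± 0.26 (SE; adjusted p = 0.00431, edgeR with Benjamini-Hochberg adjustment). Its CRC libraries lay below all sham and all injury libraries in CPM, as those of Ap3m1 and Taf10 did, and against injury it was at -0.76 ± 0.26 and did not pass (adjusted p = 0.0517, edgeR). Hmgxb3, whose exons overlap those of Csf1r on the other strand, held 14 counts and was not tested. With the strand setting unknown, the counts on Csf1r cannot be assigned to either gene. The general leukocyte marker Ptprc and the macrophage marker Adgre1 had 0 counts, and the part of leukocytes in the values of the 4 features was not tested.

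The 6 epithelial markers held 47 counts over all libraries, 27 of them on Muc1 and 0 on Cdh1, and the 4 endothelial markers held 48. None of these could be tested, so that the epithelium, the cell type transplanted, was not measurable on these features. Of the 6 stromal markers, Hoxa11 was tested and did not pass in any comparison. The feature opposite it, Hoxa11os, had 663, 913 and 691 counts in sham mice, 525, 528 and 596 after injury alone and 905, 732 and 897 after transplantation. Of the uterine markers, the progesterone receptor gene Pgr had 67, 67 and 90 counts in sham mice, 57, 49 and 46 after injury alone and 90, 77 and 76 after transplantation. Both had their lowest counts in injury, did not pass the test, and did not share the order of Ap3m1 and Taf10, in which CRC was lowest. Foxa2, the marker of uterine glands, had 0.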

How the data were processed

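RNA of uterine horns was depleted of ribosomal RNA and sequenced. The submitters' processing notes name HISAT2 2.1.0 and StringTie 2.1.1. The authors deposited whole-number read counts on 55228 features for each library, without normalization, and 5 further rows of records outside features, which were left out of library sizes. Exons were read from GENCODE M21 on GRCm38, whereas the paper names version 23 for its clustering. Counts were filtered with filterByExpr, scaled by TMM and fitted over all 9 libraries with edgeR 4.0.16 (robust quasi-likelihood test) in R 4.3.3. Benjamini-Hochberg adjustment covered all 3722 features tested, and the test was checked on simulated data. DESeq2 1.42.0 was an alternative. Log2 CPM for correlations used a prior count of 2.

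Within a group, chi-square values of the counts of 2 libraries were 2.20 to 11.9 per degree of freedom, above sampling noise. Named features were the members, their overlapping features and neighbours within 20 kb, focal adhesion genes past the threshold on either strand, members of the AP-3, TFIID and SAGA lists past the threshold, markers, and the 3 features most like Ap3m1 and Taf10. Any other feature was picked once its values were known. The members and lists were chosen with earlier results of these data known.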

Additional observations from a re-analysis of the deposited data

How the results depend on the processing

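Alternatives were other size factors (DESeq2, upper quartile), library sizes with the records outside features, no filter, a minimum of 10 counts in each library, separate fits of 2 groups, the replicate number as a block, DESeq2's Wald test and leaving out each replicate. With records outside features in the library size, Ap3m1 moved to -0.63 and -0.55 and Taf10 to -0.69 and -0.51 against sham and injury, with the shift of all features given above. With these sizes 4 features opposite focal adhesion genes passed between CRC and sham, against 2 in the main fit. The number was 3 with upper quartile factors, with the minimum of 10 counts and without sham replicate 1. With no filter 1 such feature passed between CRC and injury, and with replicates left out 1 to 2. Between injury and sham, 0 to 2 of them passed with replicates left out, the 2 without sham replicate 1. Ilk was not kept by the filter of 10 counts. Ranges of the log2 fold changes cover the alternatives other than DESeq2's Wald test. Those of Vcl lay between -0.37 and 0.12 against sham and between -0.33 and 0.06 against injury, with the -0.33 without CRC replicate 1. In the same order, Ap3m1 lay between -1.03 and -0.63 and between -0.83 and -0.55. Ilk lay between -1.22 and -0.71 and between -1.05 and -0.56, and Taf10 between -1.10 and -0.69 and between -0.79 and -0.51.

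The count between injury and sham was 16, and 6 in the fit of these groups alone. It was 3 to 154 with replicates left out, with the 154 without sham replicate 1. The replicate number as a block gave 5 calls. Replicate numbers did not pair the libraries. Same-numbered libraries had correlations of deviations between -0.10 and 0.08, and 2 of 9 libraries correlated best with their own number. Counts of Vcl and Ilk, 7 to 45 a library, limit what could be detected.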
